A study of Mus musculus with 2 samples.

Results

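Interferon-stimulated genes are the effectors, sensors and GTPases that cells switch on after interferon, and 48 of them were read out at baseline in microglia of the sham-operated mouse brain. The genes were a list of symbols, found by matching the Ensembl identifiers of both count tables to GENCODE M21 names on GRCm38, and this rule uses no measured value. All 48 were found among the 53801 genes listed. Both libraries came from Cx3cr1(CreER/wt) mice on a C57BL/6 background, in which the Cx3cr1 promoter drives a tamoxifen-inducible Cre recombinase from 1 Cx3cr1 allele and no floxed gene is named. The mice were males of 8 to 10 weeks in the series text (the study's methods give an older range and both sexes) and received tamoxifen at 75 mg/kg/day for 4 days before sham surgery. Cells of the left hemisphere were sorted 3 days after the sham operation as CD11c-Ly6G-CD11b+CD45low, with 1 mouse per library. The sample titles name sham surgery while the treatment field says none, and the libraries of the stroke arm were not analysed here. There was therefore 1 group of 2 mice and no comparison between conditions. Each mouse gave 1 library, so differences between mice and between sorts or library preparations cannot be told apart.

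Type I interferons bind IFNAR1 and IFNAR2, whose kinases JAK1 and TYK2 pass the signal on to transcription factors that bind the interferon-stimulated response element (ISRE) in promoters. Interferon gamma signals through its own receptor to the gamma-activated sequence (GAS). Microglia, the resident macrophages of the brain, carry receptors for both interferons, and some interferon-stimulated genes are also transcribed at a low tonic level without infection.

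Promoter sequence is shown first, because it is read independently of the counts. RefSeq promoter windows on GRCm38.p6, from 250 bases before to 50 bases after each annotated start, matched 36 of the 48 genes. Usp18, Oas2, Mx1, Mx2, Ifi27l2a, Rtp4, Dhx58, Parp14, Parp9, Zbp1, Ifi204 and Iigp1 had no window. The ISRE core searched was a GAAA block, any 2 bases and a second GAAA block, on either strand. It was found in 19 of the 36 genes (52.8%), against 1079 of 27025 genes with a window (3.99%). No core was found in Ifit2, Oasl2, Irf7, Ifi44, Cmpk2, Herc6, Dtx3l, Xaf1 or Ifi209. Nor was it found in Ifi35, Lgals3bp, Samd9l, Slfn2, Sp100, Ube2l6, Trim25 or Phf11d. The stretches below were chosen to show the core in some of the genes that hold it. Each core is in capitals, and all are written 5′ to 3′ on the strand of the gene. A core on the other strand reads as a TTTC block, any 2 bases and a second TTTC block.
Isg15: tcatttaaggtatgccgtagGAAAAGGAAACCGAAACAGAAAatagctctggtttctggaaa
Ifit1: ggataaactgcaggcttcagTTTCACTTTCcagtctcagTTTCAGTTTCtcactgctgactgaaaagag
Ifit3: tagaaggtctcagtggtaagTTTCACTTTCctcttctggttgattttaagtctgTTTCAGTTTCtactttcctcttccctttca
Ifit3b: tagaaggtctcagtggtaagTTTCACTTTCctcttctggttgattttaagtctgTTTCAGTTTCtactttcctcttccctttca
Oas1a: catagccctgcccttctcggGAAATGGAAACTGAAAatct
Rsad2: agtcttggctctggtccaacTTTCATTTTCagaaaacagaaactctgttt
Bst2: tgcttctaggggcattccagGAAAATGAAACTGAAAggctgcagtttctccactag
Ifitm3: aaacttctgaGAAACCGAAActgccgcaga
Gbp2: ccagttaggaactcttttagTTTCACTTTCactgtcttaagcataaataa
Irgm1: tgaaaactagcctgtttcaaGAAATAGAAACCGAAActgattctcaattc
Igtp: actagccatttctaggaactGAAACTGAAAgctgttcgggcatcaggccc

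The Isg15 stretch lies at chr4:156200855-156200916 on the minus strand and holds 3 overlapping cores, the first of which starts 78 bases before the start site. The Ifit stretches lie on the plus strand, at chr19:34640765-34640833 for Ifit1, chr19:34583353-34583436 for Ifit3 and chr19:34607749-34607832 for Ifit3b, each with 2 separate cores on the other strand. The stretches of Ifit3 and Ifit3b have the same letters, and their windows share an identical run of 169 bases. Oas1a (chr5:120907526-120907565, minus) has 2 overlapping cores that start 20 and 14 bases before its start site, while the only core of Rsad2 (chr12:26456543-26456592, minus) starts 120 bases before it. Bst2 (chr8:71537567-71537622, minus) has 2 overlapping cores, the first 130 bases before the start. The core printed for Ifitm3 (chr7:141010706-141010735, minus) lies after the annotated start. Among the GTPase genes, the first core starts 59 bases before the start in Gbp2 (chr3:142620584-142620633, plus), 30 bases before it in Irgm1 (chr11:48871421-48871470, minus) and 34 bases before it in Igtp (chr11:58199502-58199551, plus).

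Over all members the core was matched 30 times, overlapping matches counted, 17 times on the strand of the gene and 13 times on the other. The median match started 56 bases before the start site, and 10 genes held 2 or more matches. The GAS core, TTCNNNGAA, was present in 8 of the 36 genes (22.2%), against 9.55% of all genes with a window. These were Ifit2, Ifitm3, Oas1a, Bst2, Ifi35, Eif2ak2, Gbp7 and Igtp, and 6 of the 8 also held an ISRE core. The GAS core overlapped an ISRE core at 2 of its 9 matches. Of 43 further interferon-stimulated genes listed for comparison, 35 had a window and 22 of these held the ISRE core. Genes with an ISRE core had a median level of 23.2 TPM (transcripts per 1000000, a level per length, range 5.44 to 1197) and the 17 with a window but no core 18.8 TPM (0.206 to 345), which overlap widely. A match describes letters in a window and is not shown here to be a bound site.

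**Figure D1:**
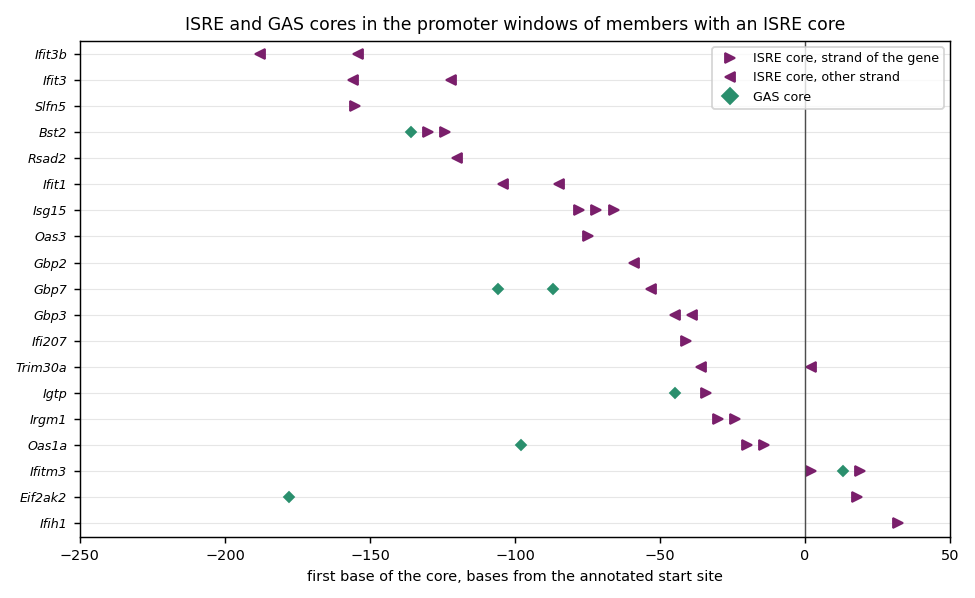
Position of the ISRE core and the GAS core in the promoter windows of the 19 genes with an ISRE core. The x axis is the distance of the core's first base from the annotated start site in bases, triangles give the strand of the ISRE core and diamonds are GAS cores. Trim30a has a window for each of 2 annotated starts. Most cores sit before the start, from 188 bases before it in Ifit3b to 32 bases after it in Ifih1.

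The tables held 23381026 counts in library 1 and 41142609 in library 2. Levels are counts per 1000000 counts on genes (CPM), and 0 counts allow up to 0.128 CPM in the first and 0.0729 CPM in the second. Where a pair of values is given for a gene, library 1 comes first and library 2 second. In all, 13445 genes had at least 10 counts in both libraries and were called counted. The sort was checked against 10 microglia markers, all of them counted, which summed to 51226 and 47240.1 CPM in libraries 1 and 2. Of these, 0 were over 2-fold higher and 2 over 2-fold lower in library 2, beside 5.74% and 25.9% of all genes counted. The 19 neutrophil markers, none at 0, summed to 5663 and 66107 CPM in libraries 1 and 2. Over 2-fold higher in library 2 were 18 of them, beside 5.74% of all genes counted. The 7 border macrophage markers, also all counted, summed to 709 and 338 CPM in libraries 1 and 2. The 6 monocyte markers, all counted, summed to 501 and 676 CPM. The 5 B cell markers, of which 2 were counted, summed to 570 and 778 CPM. The 6 markers of T and NK cells had 3 counts in library 1 and 139 in library 2, of which Cd3d held 3 and 109, and Cd3e and Cd8a were at 0 in both. The part of these other cells in the values below was not tested. In bulk RNA, fewer cells of a type and less RNA per cell cannot be told apart.

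Nearly all of the interferon-stimulated genes were detected in both sham libraries, over a wide range of levels. Of the 48, 47 were counted, and the exception was Ifi44, with 7 counts in library 1 and 30 in library 2. The summed level was 2715 and 2369.6 CPM in libraries 1 and 2, a mean of 2542 ± 244 CPM (SD, n = 2), or 0.272% and 0.237% of all counts. Per gene, the mean level was over 100 CPM for 7 genes, between 10 and 100 CPM for 34 and under 10 CPM for 7. The sum was uneven, since Lgals3bp and Ifitm3 together supplied 26.5% of it in library 1 and 28.4% in library 2. The 5 genes with the most counts, Lgals3bp, Ifitm3, Slfn2, Bst2 and Irgm1, supplied 39.9% and 49.1%. Across the 48 genes, which share the same libraries, the CPM of the libraries had a Spearman rho of 0.842, given as a description.

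**Figure D2:**
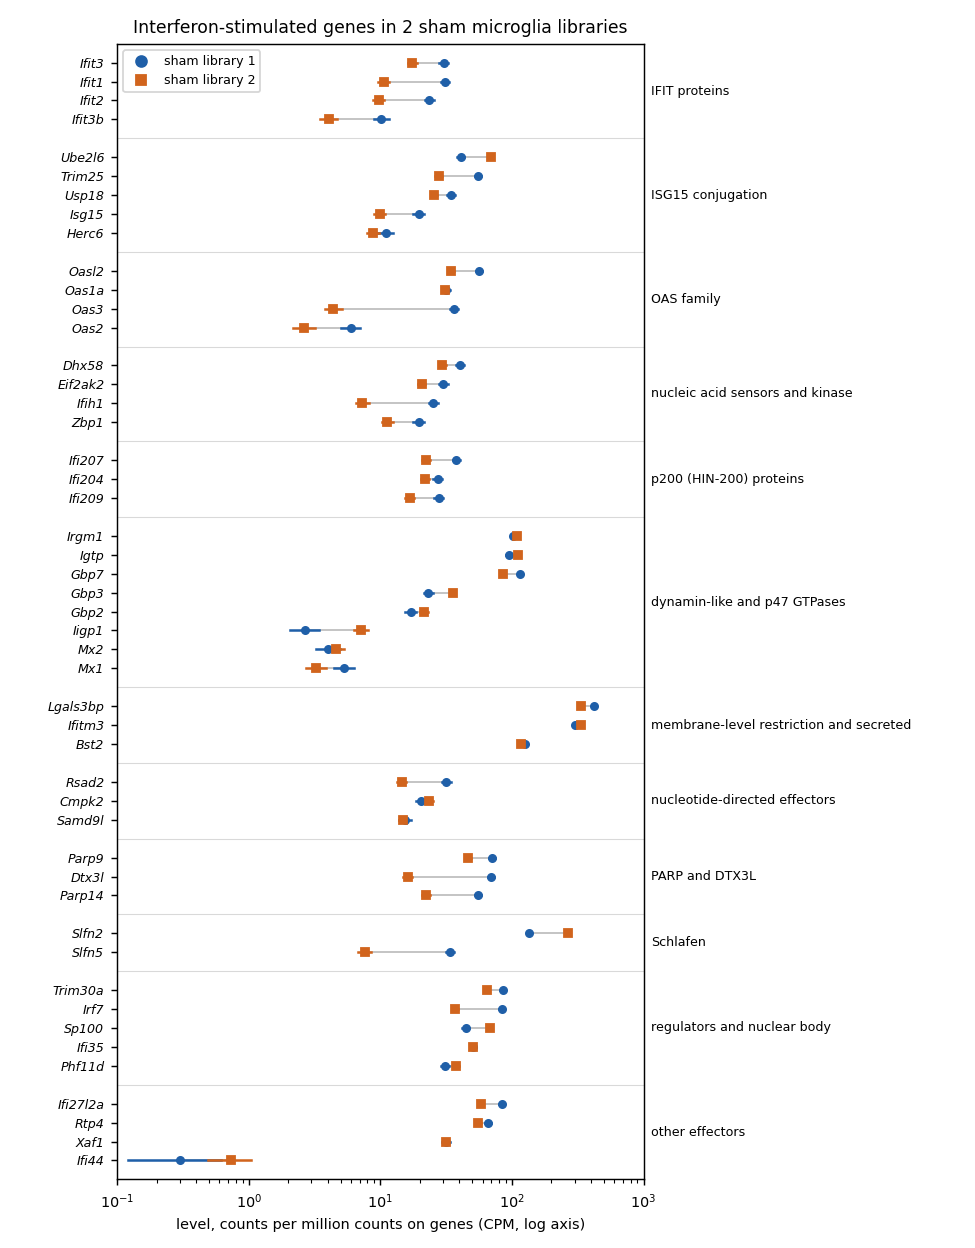
Level of each of the 48 genes in the sham libraries, in CPM on a log axis, grouped by role. Circles are library 1, squares are library 2, grey lines join them, and bars are 95% Poisson intervals of the count, which cover counting error only. Lgals3bp and Ifitm3 lie furthest right, above 300 CPM in both libraries, and Ifi44 furthest left, below 1 CPM in both.

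Levels of different genes were compared per length, in TPM on merged exon length. On this scale 37 of the 48 genes lay above the median of all genes counted, which was 10.0 TPM, and the median of the counted members was 19.5 TPM. The order changed from that of the counts, with Ifitm3 first at 1197 ± 93.8 TPM (SD, n = 2), followed by Ifi27l2a at 403 ± 161 TPM, Bst2 at 347 ± 69.9 TPM, Lgals3bp at 345 ± 104 TPM and Slfn2 at 299 ± 94.9 TPM. Ifitm3 stood above the next gene by more than the spread of either, whereas Ifi27l2a, Bst2, Lgals3bp and Slfn2 did not differ from one another in this order, neighbour by neighbour, beyond their spread. Slfn2 in turn stood above Igtp, at 129.9 ± 4.56 TPM, by more than the spread of either. These 6 genes, Ifitm3 to Igtp, were the ones past the 90th percentile of all genes counted. At the other end were Oas2 (2.60 ± 1.74 TPM), Iigp1 (2.06 ± 1.06 TPM) and Ifi44 (0.206 ± 0.0945 TPM).

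**Figure D3:**
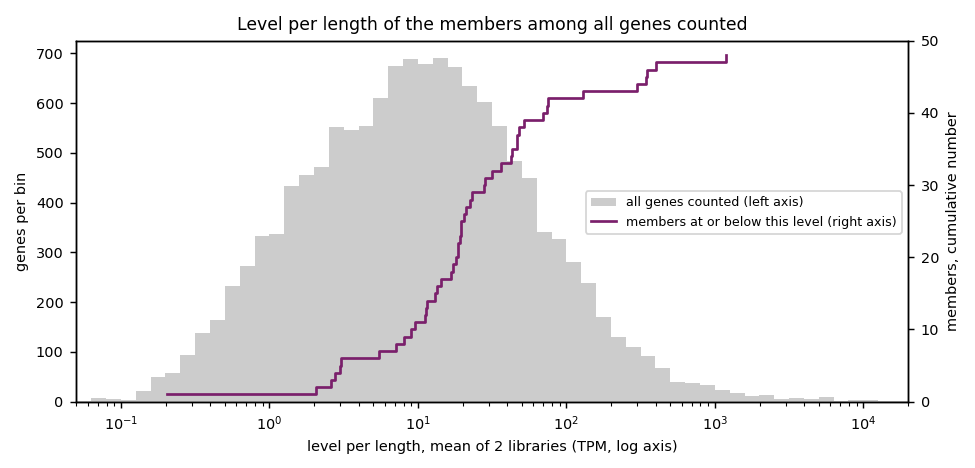
Level per length of the 48 genes among all genes counted. The x axis is the mean TPM of the 2 libraries on a log axis, grey bars count all genes per bin (left axis) and the line gives the cumulative number of members (right axis). The line climbs mostly between 10 and 100 TPM, to the right of the peak of the grey bars.

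The role group that took the most counts was the membrane and secreted one, at 846 and 789.5 CPM in libraries 1 and 2. Ifitm3, which blocks the fusion of enveloped viruses in endosomes (chromosome 7, 141009586 to 141010770), had 301 and 335 CPM. Bst2, or tetherin, which holds budding virions at the cell surface (chromosome 8, 71534255 to 71537456), had 126 and 117 CPM. Lgals3bp, a secreted glycoprotein that binds galectins (chromosome 11, 118392751 to 118402092), had 419 and 338 CPM. These genes were steady between the libraries, with ratios of library 2 to library 1 of 1.11 for Ifitm3, 0.932 for Bst2 and 0.806 for Lgals3bp. Bst2 is also 1 of 6 markers listed for plasmacytoid dendritic cells, of which 4 were counted and which summed to 1967 and 2693 CPM in libraries 1 and 2. Most of that sum was Siglech, also a microglia marker, with 1679.8 and 2394 CPM. Nearly all of the rest was Bst2 itself and Tcf4, which was counted too. Ccr9 had 19 and 20 counts, Ly6d had 4 and 27, and Klk1 was at 0 in both. The part of plasmacytoid dendritic cells in the level of Bst2 was not tested.

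The GTPases, which act on viral capsids or on the vacuoles of intracellular pathogens, summed to 364 and 378 CPM in libraries 1 and 2. The p47 GTPases Irgm1 and Igtp were steady, with 102 and 109 CPM for Irgm1 (chromosome 11, 48861968 to 48871683) and 94.6 and 112 CPM for Igtp (chromosome 11, 58199556 to 58207591). Per length Igtp was the higher of these, at 129.9 ± 4.56 TPM against 46.4 ± 4.88 TPM. The third p47 GTPase, Iigp1, was far lower per length, at 2.06 ± 1.06 TPM, with 63 counts or 2.69 CPM in library 1 and 294 counts or 7.15 CPM in library 2. It was the only counted member over 2-fold higher in library 2 with the library totals as scaling, by 2.65-fold (95% interval 2.01 to 3.54, counting error only), where 5.74% of all genes counted were that much higher.

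The listed genes of guanylate-binding proteins form a cluster on chromosome 3, from 142530342 to 142638008. Gbp7 had 115 and 85.6 CPM, Gbp3 had 23.2 and 35.4 CPM and Gbp2 had 17.0 and 21.5 CPM. Gbp7 was thus lower in library 2 while its neighbours Gbp3 and Gbp2 were higher there, and the log2 ratio of Gbp7 turned from -0.43 to 0.09 after adjustment for GC content and length. Mx1 and Mx2, the dynamin-like GTPases that trap viral nucleocapsids, were near the bottom of the list per length, at 2.99 ± 1.45 TPM and 3.05 ± 0.156 TPM. Mx1 had 5.35 and 3.26 CPM, and Mx2 had 4.02 and 4.64 CPM. Laboratory strains such as C57BL/6 are known to carry a defective Mx1 allele.

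The 4 listed IFIT genes encode proteins that bind foreign RNA by its 5′ end and block its translation. All 4 were lower in library 2, beside 61.5% of all genes counted that were lower. The 4 genes lie on chromosome 19, between 34550694 and 34650009, and summed to 95.2 and 42.0 CPM in libraries 1 and 2. The whole stretch did not go 1 way. Of the related genes there outside the list, Ifit1bl1 had 2.74 and 1.58 CPM, but Ifit1bl2 was higher in library 2, with 5.73 and 15.7 CPM. Ifit1 had 31.1 and 10.6 CPM, and Ifit2 had 23.7 and 9.72 CPM. Ifit3 had 30.4 and 17.5 CPM, and its close copy Ifit3b had 10.2 and 4.06 CPM. Of the bases where a 75-base read could start, 41.1% in Ifit3 and 35.7% in Ifit3b give a read that also occurs in another gene, each in the other, so the split between them is uncertain. After subtraction of the median log2 ratio of genes of like GC content and transcript length, the ratios of library 2 to library 1 were -1.76 for Ifit1, -1.17 for Ifit2, -1.08 for Ifit3 and -1.67 for Ifit3b. On that adjusted scale all 4 were over 2-fold lower in library 2, and 12.7% of all genes counted were.

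The genes of the ISG15 system, a ubiquitin-like tag that is joined to proteins, summed to 161 and 142 CPM in libraries 1 and 2. Isg15 itself (chromosome 4, 156199424 to 156200818) had 19.6 and 9.94 CPM. Ube2l6, the enzyme that conjugates ISG15, had 41.0 and 69.5 CPM, and Herc6, the ligase that does so in mice, had 10.99 and 8.87 CPM. Isg15 and Ube2l6 differed in opposite directions between the libraries. Usp18, which removes ISG15 and restrains the type I receptor, had 34.5 and 25.6 CPM. Trim25, a ubiquitin ligase of the RIG-I pathway, had 55.3 and 27.7 CPM. The log2 ratio of Trim25 went from -0.99 to 0.09 once genes of like GC content and length were subtracted.

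The OAS genes, whose enzymes answer double-stranded RNA by making the oligoadenylates that activate RNase L, summed to 130.1 and 72.6 CPM in libraries 1 and 2. Oasl2, an OAS-like protein, had 56.2 and 34.6 CPM. Oas1a had 31.4 and 30.9 CPM, although 47.6% of its 75-base starts are shared with other genes, chiefly Oas1g. Oas2 was low per length, at 2.60 ± 1.74 TPM, and had 5.99 and 2.65 CPM. The largest difference among the counted members, as a ratio between the libraries, was that of its neighbour Oas3 (chromosome 5, 120753098 to 120777661). Oas3 had 851 counts or 36.4 CPM in library 1 and 181 counts or 4.40 CPM in library 2, 8.27-fold lower (95% interval 7.04 to 9.77). Its log2 ratio was -3.05, and -1.51 after the adjustment for GC content and length.

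The sensors of foreign nucleic acid and the kinase PKR summed to 115 and 68.9 CPM in libraries 1 and 2. All 4 genes were lower in library 2, beside 61.5% of all genes counted that were lower. Ifih1, which encodes the RNA sensor MDA5, had 25.4 and 7.32 CPM. Dhx58, which encodes its partner LGP2, had 40.3 and 29.7 CPM. These helicases differed in steadiness, with log2 ratios of -1.79 for Ifih1 and -0.44 for Dhx58. Zbp1, a sensor of Z-form nucleic acid that can trigger necroptosis, had 19.6 and 11.3 CPM. Eif2ak2, which encodes PKR and halts translation on double-stranded RNA, had 30.2 and 20.6 CPM.

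The listed p200 genes, of a family of DNA-binding proteins, lie on chromosome 1 from 173630917 to 173766943. They summed to 93.2 and 61.0 CPM in libraries 1 and 2. Ifi207 had 37.9 and 22.3 CPM, Ifi204 had 27.5 and 22.0 CPM and Ifi209 had 27.9 and 16.7 CPM. These listed members were all lower in library 2, with log2 ratios from -0.76 to -0.32, beside 61.5% of all genes counted that were lower. Shared sequence touches this family too, with 23.1% of the 75-base starts of Ifi209 and 13.2% of those of Ifi204 found in other genes.

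Rsad2 encodes viperin, which makes a chain-terminating nucleotide, and lies next to Cmpk2, a mitochondrial nucleotide kinase, on chromosome 12. Rsad2 had 31.8 and 14.5 CPM, whereas Cmpk2 had 20.3 and 23.5 CPM. The neighbours therefore differed in direction, with log2 ratios of -1.13 and 0.21. Samd9l, a restriction factor that blocks translation, had 15.3 and 14.9 CPM. The 3 genes summed to 67.4 and 52.9 CPM in libraries 1 and 2.

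The ADP-ribosylation genes lie together on chromosome 16, from 35832874 to 35972605, and summed to 195 and 85.1 CPM in libraries 1 and 2. Parp14 had 55.1 and 22.3 CPM, and Parp9 had 70.5 and 46.6 CPM. Dtx3l, the ubiquitin ligase that works with PARP9, had 69.3 and 16.2 CPM. Parp9 and Dtx3l overlap on opposite strands, and without a stated strand setting reads in the overlap cannot be assigned to either. The median log2 ratio of the 3 genes was -1.30 and became -0.29 after the adjustment for GC content and length, while Dtx3l was still at -1.12.

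The Schlafen genes went opposite ways. Slfn2, which keeps immune cells quiescent (chromosome 11, 83065112 to 83070678), had 136 and 266 CPM. Slfn5, a nuclear member of the family, had 33.8 and 7.61 CPM. Their summed log2 ratio was 0.69 and their median log2 ratio -0.59, since Slfn2 supplied most of the counts. Neutrophil markers were higher in library 2, where Slfn2 and Iigp1 were higher too, and their part in these values was not tested.

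Among the regulators, Irf7, the factor that amplifies the type I interferon response, had 84.0 and 37.0 CPM. Trim30a, which dampens Toll-like receptor signalling, had 85.5 and 64.8 CPM. Irf7 was over 2-fold lower in library 2 with the library totals, and its log2 ratio went from -1.18 to -0.37 after the adjustment for GC content and length. Sp100, a component of nuclear bodies, had 44.6 and 67.6 CPM, the reverse direction. Ifi35 had 50.8 and 51.0 CPM, and Phf11d had 31.2 and 37.7 CPM. The group summed to 296 and 258 CPM in libraries 1 and 2.

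The remaining effectors summed to 182 and 146 CPM in libraries 1 and 2. Ifi27l2a (chromosome 12, 103442167 to 103443680) had 84.1 and 58.4 CPM, and its short transcript placed it second per length. Rtp4, a chaperone of surface receptors, had 66.1 and 55.7 CPM. Xaf1, which antagonises the inhibitor of apoptosis XIAP, had 31.5 and 31.5 CPM. Ifi44 had 0.299 CPM in library 1 (95% Poisson interval 0.1204 to 0.617) and 0.729 CPM in library 2 (0.492 to 1.04), a ratio of 2.44 (95% interval 1.05 to 6.57, counting error only). Among all 48 genes, 15 shared over 5% of their 75-base starts with other genes and 18 shared none.

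**Figure D4:**
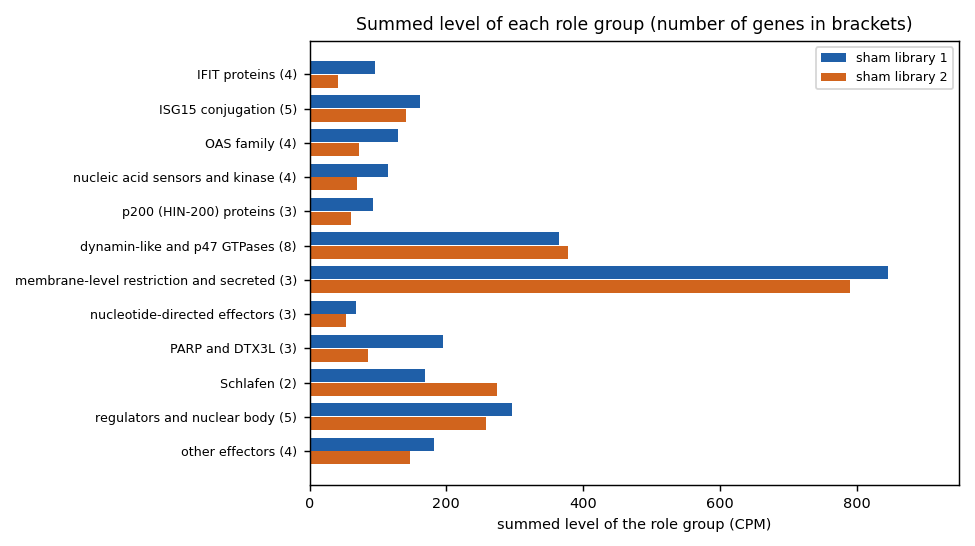
Summed level of each of the 12 role groups in the sham libraries, as bars from 0 in CPM, with the number of genes in brackets. The membrane and secreted group is the tallest in both libraries. Library 2 exceeds library 1 in the GTPase and Schlafen groups and is lower in the other 10.

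Between the libraries, 33 of the 47 counted members (70.2%) were lower in library 2 and 14 were higher, beside 61.5% of all genes counted that were lower. The median log2 ratio was -0.43, beside -0.26 for all genes counted, a gap of -0.17 that no library scaling can change, and after the adjustment for GC content and length the gap was -0.29. Over 2-fold lower in library 2 were 11 of the 47 members (23.4%), beside 25.9% of all genes counted, so the share of such members was near that of genes in general. On the scale adjusted for GC content and length, 8 of the 47 (17.0%) were, beside 12.7% of all genes. The 11 were Rsad2, Irf7, Ifih1, Oas3, Oas2, Parp14, Ifit1, Ifit2, Dtx3l, Slfn5 and Ifit3b. The summed level had a log2 ratio of -0.20 with the library totals, but 0.034 with TMM and 0.078 with DESeq2 scaling, so its direction depended on the scaling. TMM and DESeq2 raised every log2 ratio by 0.23 and 0.27. The sums of the IFIT, OAS, sensor, p200, ADP-ribosylation and Rsad2 groups and of the remaining effectors stayed lower in library 2 under all scalings of the totals, and those of the GTPase and Schlafen groups stayed higher. The sums of the ISG15, membrane and regulator groups were lower with the library totals and higher with TMM and DESeq2.

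The ratio of library 2 to library 1 fell with transcript length, among the members and among genes in general. The Spearman rho of log2 ratio and length of the longest transcript was -0.44 over the 47 members and -0.38 over all genes counted, given as a description because all genes share the same 2 libraries. Members with transcripts under 2000 bases had a median log2 ratio of -0.10 (11 genes), those of 2000 to 4000 bases -0.40 (25 genes), and those over 4000 bases -1.13 (11 genes). The medians of all genes in these classes were 0.09, -0.12 and -0.90. Over 2-fold lower in library 2 were 0 of the 11 short members, beside 11.5% of all genes in that class, 5 of the 25 in the middle class, beside 19.04%, and 6 of the 11 long ones, beside 45.7%.

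**Figure D5:**
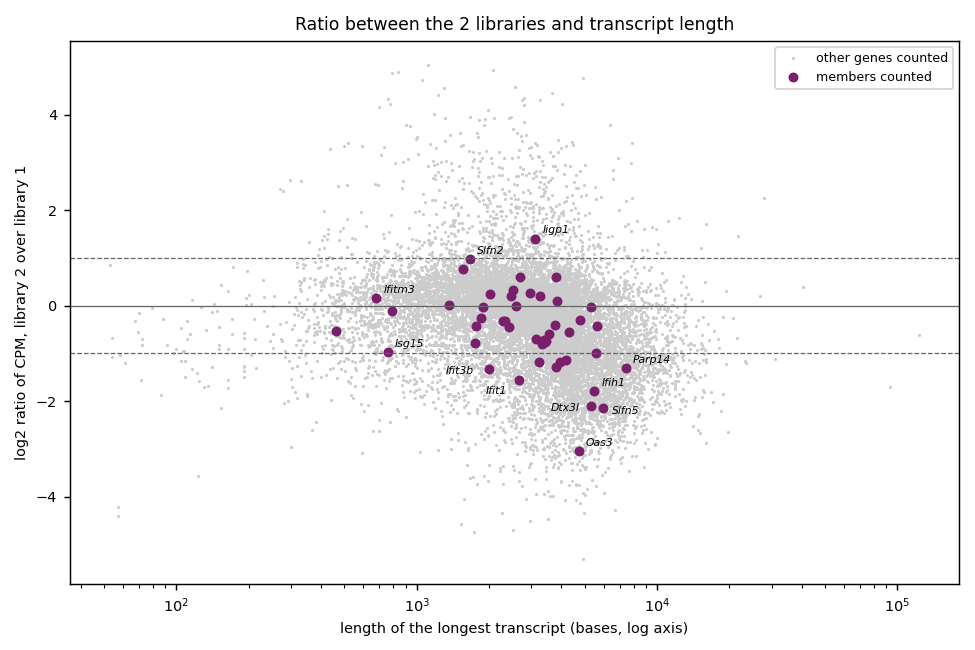
The log2 ratio of CPM in library 2 over library 1 against the length of the longest transcript, in bases on a log axis. Purple points are the 47 counted members, grey points all other genes counted, and dashed lines mark a 2-fold difference. The long transcripts Oas3, Dtx3l, Slfn5 and Ifih1 lie lowest among the members, where the grey cloud also dips.

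The genes upstream of these targets took very unequal shares of the counts. The 7 receptor and kinase genes summed to 2938 and 2673 CPM in libraries 1 and 2, all were counted, and none was over 2-fold higher and 3 over 2-fold lower in library 2, beside 5.74% and 25.9% of all genes counted. Ifngr1, the binding chain of the interferon gamma receptor, supplied most of this sum, with 1724 and 1946 CPM. Of the type I receptor chains, Ifnar2 had 246 and 228 CPM and Ifnar1 had 118 and 55.0 CPM. Irf9, the DNA-binding factor that targets the ISRE, had 161 and 110.5 CPM, or 66.0 ± 26.8 TPM per length. Of the 10 ligand genes none was counted, and 8 were at 0 in both libraries. The other two were Ifnb1, with 3 and 6 counts, and Ifng, with 0 and 4 counts.

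A further 43 interferon-stimulated genes outside the list summed to 1549 and 1248 CPM in libraries 1 and 2. Of these, 39 were counted, 2 were over 2-fold higher and 6 over 2-fold lower in library 2, beside 5.74% and 25.9% of all genes counted, and their median log2 ratio was -0.24, beside -0.26. The 5 with the most counts were Ccl12, a monocyte chemokine, with 235 ± 14.9 CPM (SD, n = 2), the immunoproteasome subunits Psmb8, with 170.4 ± 12.3 CPM, and Psmb9, with 93.3 ± 31.6 CPM, then Tor3a, with 159.8 ± 44.8 CPM, and Irgm2, with 86.7 ± 24.4 CPM. Ifi44l was at 0 in both. The 7 genes of MHC class I presentation, which interferon also raises, summed to 4898 and 7097 CPM in libraries 1 and 2. B2m led the list. None of the 7 was over 2-fold higher and 1, Nlrc5, was over 2-fold lower in library 2, against those same shares of all genes. Tap1 and Nlrc5 belong to both this list and that of the 43 genes. Of the 6 negative regulators, which include Usp18, 5 were counted and Trex1 was at 0 in both. The list summed to 1176 and 1109 CPM in libraries 1 and 2. Exon overlap with other genes was examined only for the 48 members. Whether a 0 outside them came from absent RNA or from the counting was not tested.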

How the data were processed

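Bulk RNA-seq of sorted microglia from 2 sham-operated mice was analysed. SMART-Seq HT cDNA was sequenced as Nextera XT libraries with paired-end 75-base reads. The authors aligned reads to GRCm38 by HISAT2 and assigned them to Ensembl genes by HTSeq. What they deposited is the raw count of each gene, not normalized. Tool versions, strand setting, handling of multi-mapped reads and annotation release are not given in the sources used here. Symbols and lengths came from GENCODE M21 (53620 of 53801 identifiers matched).

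CPM is the count of a gene over the total of its library, times 1000000. TPM used merged exon length. Intervals are 95%, exact for counts and ratios, and cover counting error only. A gene was called counted from 10 counts in each library, and over 2-fold was a CPM ratio past 2. With 1 group no test was run. The adjusted ratio subtracted the median of genes in the same of 10 bins each of GC content and length (GC content alone under 20 genes). It recovered planted ratios in simulated data with counting noise only. Those ratios were well past 2-fold, so recovery of ratios near 2-fold, or with spread between mice, was not tested. Alternatives were edgeR 4.0.16 (TMM) and DESeq2 1.42.0 scaling, other totals and filters, and leaving out each library. Totals without the 19 neutrophil markers and the length of the longest transcript were added after seeing the data. Analyses used R 4.3.3, Python 3.11.15, numpy 2.4.6, pandas 2.3.3, scipy 1.17.1 and matplotlib 3.10.9.

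All 48 members were named. Of the 43 other interferon-stimulated genes, the 5 with the highest mean CPM and those at 0 were named, and Oas1g, Ifit1bl1 and Ifit1bl2 as relatives of members. Members and lists were chosen with earlier results of these data known. A planned comparison of protein sequences was not run, and 75-base sequences shared between transcripts were counted instead. One gene of the pathway lists is not reported here.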

Additional observations from a re-analysis of the deposited data

How the results depend on the processing

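With 2 libraries of 1 group, the number of mice limits the precision of every mean. Depth limits the ratio between the libraries most in Ifi44, with 7 and 30 counts. In Oas1a, Xaf1, Ifi35 and Samd9l the ratio was near 1 (0.975 to 1.004), and its counting interval included 1. That interval also included 1 for Mx2, at a ratio of 1.15 from 94 and 191 counts. No paired analysis was possible because there is only 1 group. The summed level was 2164 CPM without Lgals3bp, the member with the most counts, and ranged from 2370 to 2715 CPM with each library left out. Without the 19 neutrophil markers in the totals, the GTPase sum was 386 CPM. Ratios between the libraries have no value with a library left out. The median log2 ratio of the members was -0.20 with TMM scaling, -0.16 with DESeq2 scaling and -0.29 after the adjustment for GC content and length. The log2 ratio of the summed level turned to 0.034 with TMM and to 0.078 with DESeq2 scaling, since these scalings raise every ratio, and was -0.11 without the neutrophil markers in the totals and -0.18 without Lgals3bp. The number of members over 2-fold higher in library 2 was 2 with TMM (Iigp1 and Slfn2), 3 with DESeq2 (with Ube2l6), 2 without the neutrophil markers in the totals, 2 with genes of at least 1 count and 0 with genes of at least 100 counts. The number over 2-fold lower was between 8 and 12 under the alternatives. Of 192 levels of single members recomputed with other totals or scalings, 182 moved by less than 1 SD and 10, in Oas1a, Xaf1, Ifi35 and Samd9l, by more, where the SD was small. With a library left out, each level is that of the other library.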
